A study of Mus musculus with 48 samples.

Results

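The genes described here are 5 that build or anchor the channels between astrocytes: the connexins Gja1, Gjb6 and Gjb2, the pannexin Panx1 and the junction scaffold Tjp1. They were matched by symbol, and all 5 were found among the 47643 Ensembl genes counted. The study compared ribosome-bound RNA of whole astrocytes (Astro) with that of perisynaptic astrocytic processes (PAP), the thin outer branches that contact synapses, in the dorsal hippocampus. All samples came from 3 mice, C1 to C3 (animals 1 to 3 below), of the line Tg(Aldh1l1-eGFP/Rpl10a) JD130Htz, in which the Aldh1l1 promoter, active in astrocytes, drives a ribosomal protein fused to green fluorescent protein. Both groups were pulled down with an antibody to that protein, and neither had a treatment. The age and sex of the mice and the way the processes were separated are not given in the sources used here. Each animal gave 1 Astro and 1 PAP library, each the sum of 8 technical replicates, so that n = 3 per group.

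Connexins are membrane proteins that assemble into hemichannels. A pair of hemichannels from adjoining cells forms a gap junction channel, through which ions, glucose, second messengers and other small molecules pass. In astrocytes Gja1 (connexin 43) and Gjb6 (connexin 30) form the bulk of these channels and join the cells into a network, which takes up and spreads potassium and delivers metabolites to active synapses. Gjb2 (connexin 26) is found in some astrocytes and in the leptomeninges. Panx1 makes large-pore channels that release ATP rather than gap junctions, and Tjp1 encodes ZO-1, a scaffold of tight and gap junctions whose second PDZ domain binds the carboxyl end of connexin 43.

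Connexin 43 carries that binding site at the end of its coding sequence. The last 30 bases are shown for the 3 connexins, so that this end of Gja1 can be read beside the others, from the GENCODE M21 transcripts on GRCm38, with the last 4 codons before the stop codon in capitals. They lie at chr10:56388666-56388695 on the plus strand for Gja1, and at chr14:57124017-57124046 and chr14:57100069-57100098 on the minus strand for Gjb6 and Gjb2.
Gja1: agacctcggcctgatGACCTGGAGATTtaa
Gjb6: cagaatgcaatcacaAGTTTCCCAAGTtaa
Gjb2: tgctcaggaaagtccAAAAGACCAGTCtaa
The capitals differ among all 3 genes, and no count in these data bears on the binding itself.

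The PAP libraries were shallower and less uniform than the Astro libraries. The Astro totals lay between 18707844 and 20293538 counts, the PAP totals between 1829962 and 2980984, and 3 counts corresponded to 0.991 to 1.55 CPM in PAP against 0.152 to 0.176 CPM in Astro. CPM are counts scaled to a common library total, here with TMM factors, which correct the totals for differences in composition. The 12 astrocyte markers fixed as a list summed to 28285 to 35990 CPM in Astro and to 3925, 9523 and 16984 CPM in PAP animals 1 to 3, a factor of 9.17, 3.26 and 1.67 within the animals. All 12 were tested, 4 fell in PAP (Aldh1l1, Aldoc, Slc1a3 and Sox9), 0 rose, beside 15.4% and 5.92% of all tested genes, and Fgfr3 was at 0 in PAP animal 1. With the animal as a block in the edgeR test 0 of the 12 passed. In that fit 9 of the 12 had an unadjusted p under 0.05, beside 3402 of the 14618 genes tested. The 8 B-lineage markers went the other way, from 39.6 to 63.6 CPM in Astro to 5778, 3555 and 2739 CPM in PAP, with 4 of the 6 tested called higher and 1 lower, or 3 and 0 with the block. In such bulk samples, fewer astrocyte fragments and less RNA per fragment cannot be told apart.

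Gja1 (ENSMUSG00000050953, chromosome 10, 56377330 to 56402513, plus strand) was the most counted gene of the group. Its level was 1687, 1578 and 943 CPM in Astro animals 1 to 3 and 231, 390 and 934 CPM in PAP animals 1 to 3. PAP animal 3 stood just under Astro animal 3, so the groups did not overlap but met, and within the animals PAP was 7.30, 4.04 and 1.01 times lower. The group means of 1403 ± 402 and 519 ± 369 CPM (SD, n = 3) differed by -1.43 ± 0.55 (SE) on the log2 scale, which did not pass the edgeR quasi-likelihood test (adjusted p 0.130). Without PAP animal 3 it was -2.24 and passed (edgeR adjusted p 0.0208), and the DESeq2 Wald test on all libraries gave -1.38 with an adjusted p of 0.0283.

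Gjb6 (ENSMUSG00000040055, chromosome 14, 57123303 to 57133611, minus strand) fell in PAP. It stood at 891, 805 and 638 CPM in Astro animals 1 to 3 and at 74.0, 147 and 243 CPM in PAP animals 1 to 3. The highest PAP library lay well under the lowest Astro library, and within the animals PAP was 12.04, 5.48 and 2.63 times lower. The log2 fold change was -2.33 ± 0.47 (SE), which passed (edgeR adjusted p 0.0208). The fit with the animal as a block gave -2.48 and did not pass (edgeR adjusted p 0.176). The median of all tested genes was -1.63 in that fit and -0.53 without the block. The call was also lost without any 1 of the Astro libraries (edgeR adjusted p 0.0760 to 0.0961) and in voom with group variance weights (0.198).

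**Figure D1:**
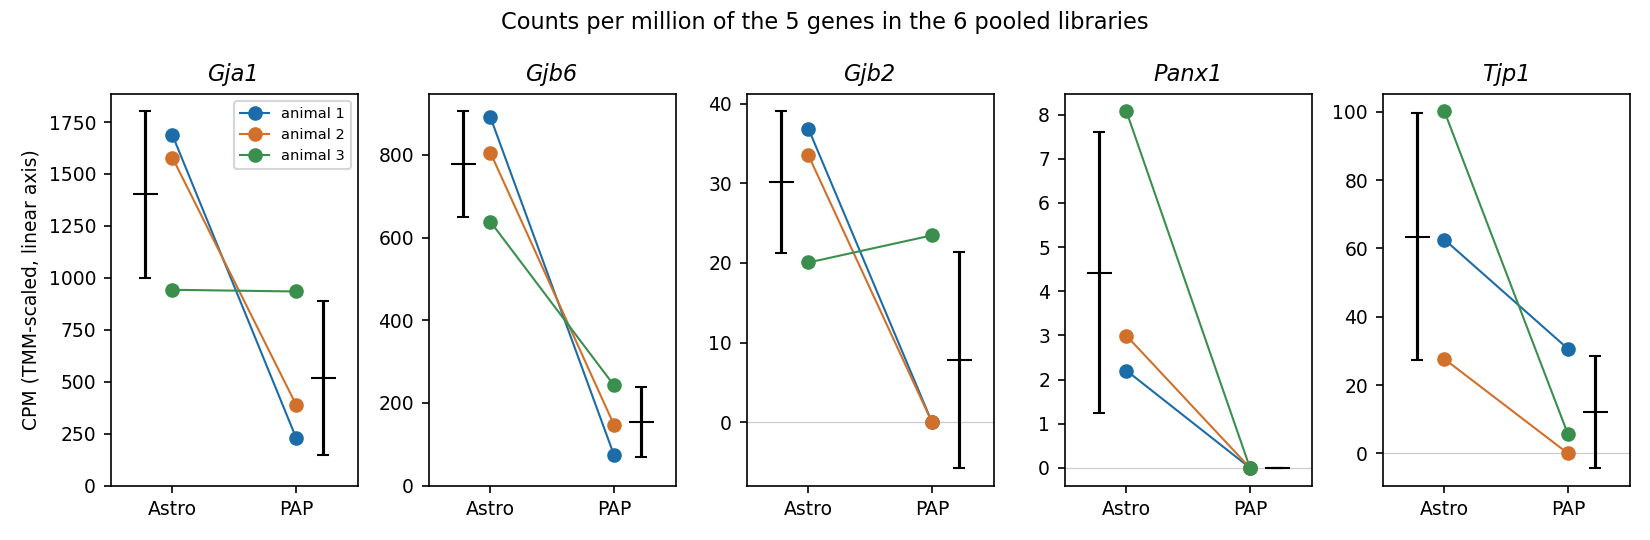
Each panel shows 1 gene, with CPM on a linear axis for the Astro and PAP libraries, lines joining the libraries of an animal, and bars giving the mean and SD of 3 libraries. Gjb6 is lower in PAP in 3 animals, while the line of animal 3 is flat for Gja1, at 943 and 934 CPM.

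Gjb2 (ENSMUSG00000046352, chromosome 14, 57098600 to 57104702, minus strand), the neighbour of Gjb6, was present in 1 PAP library only. Its counts were 686, 571 and 395 in Astro, animals 1 to 3, against 0, 0 and 71 in PAP, or 36.9, 33.5 and 20.1 CPM against 0, 0 and 23.5 CPM. At the level of their own animal's Astro library, the PAP libraries would have held 72.2, 65.0 and 60.7 counts. PAP animal 3 was thus 1.17 times its Astro level, whereas the other PAP libraries had none, and the log2 fold change of -1.93 ± 2.00 (SE) did not pass (edgeR adjusted p 0.614). The 71 counts were spread over all 8 technical replicates, with 6 to 17 in each. Without PAP animal 3 the gene was called lower (edgeR adjusted p 0.0190). The remaining PAP libraries had 0 counts, so in that fit it passed the filter only through Astro and the call is no support. With all libraries it passed in voom with group variance weights (log2 fold change -4.92, adjusted p 0.0466). Of the 9 leptomeningeal fibroblast markers 5 were tested and 2 fell, beside 15.4% of all tested genes (0 with the block, beside 0.0342%). The 9 summed to 14.7 to 75.3 CPM in Astro and to 10.7, 4.12 and 145 CPM in PAP animals 1 to 3. PAP animal 3, the one with Gjb2, thus had the highest sum. PAP animal 3 was the highest PAP library for 5 of the 9, with 238 counts of Col1a2 and 142 of Dcn, while Lum and Slc6a13 were at 0 in every PAP library. Lum and Slc6a13 were the 2 that fell, and they passed the filter only through Astro, so their calls are no support for the count. The part of leptomeningeal cells in the Gjb2 counts was not tested.

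Panx1 (ENSMUSG00000031934, chromosome 9, 15002128 to 15045478, minus strand) was scarce in whole astrocytes and not detected in PAP. Its counts were 41, 51 and 159 in Astro, animals 1 to 3, which is 2.20, 2.99 and 8.07 CPM, and 0 counts in each PAP library. At the Astro level of the same animal, 4.32, 5.81 and 24.4 counts would have been seen in PAP, so only in animal 3 did the depth leave much room below that level. Measured against the floor of 3 counts per PAP library, Panx1 was at least 3.26-fold lower than the Astro mean of 4.42 ± 3.19 CPM (SD, n = 3), a bound that is 1.92-fold without Astro animal 3. It passed the edgeR test (adjusted p 0.0284), not with the animal as a block (0.206), nor without PAP animal 3 (0.05001), and at equal depth or without any 1 Astro library it was too low to be tested.

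Tjp1 (ENSMUSG00000030516, chromosome 7, 65296165 to 65527781, minus strand) varied among animals in both compartments. It stood at 62.6, 27.6 and 100.1 CPM in Astro animals 1 to 3 and at 30.6, 0 and 5.62 CPM in PAP animals 1 to 3, from 60, 0 and 17 counts. PAP animal 1 lay above Astro animal 2, so the groups overlapped, although PAP was the lower library within each animal. The log2 fold change was -2.40 ± 1.61 (SE), and it did not pass (edgeR adjusted p 0.40). PAP animal 2, where 53.6 counts would match its Astro level, had none.

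All 5 genes passed the filter on low counts, Panx1 only through its Astro libraries, so that its lower call and its lack of overlap follow in part from the filter and are no support for the count. Of these, 2 were called lower and 0 higher, beside 15.4% and 5.92% (21.3% in all) of the 14618 genes tested, and in 3 of them PAP lay below Astro without overlap, beside 35.1% of all tested genes. The log2 fold changes had a median of -2.33, or -1.93 with Panx1 at its bound, against -0.53 for all tested genes. With the animal as a block in the edgeR test, 0 of the 5 passed, where 0.91% of the genes tested were called, 0.876% higher and 0.0342% lower. In that fit 3 of the 5 had an unadjusted p under 0.05, beside 3402 of the 14618 genes tested. The DESeq2 Wald test without the block called 3, beside 5141 of its 14298 tested genes.

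**Figure D2:**
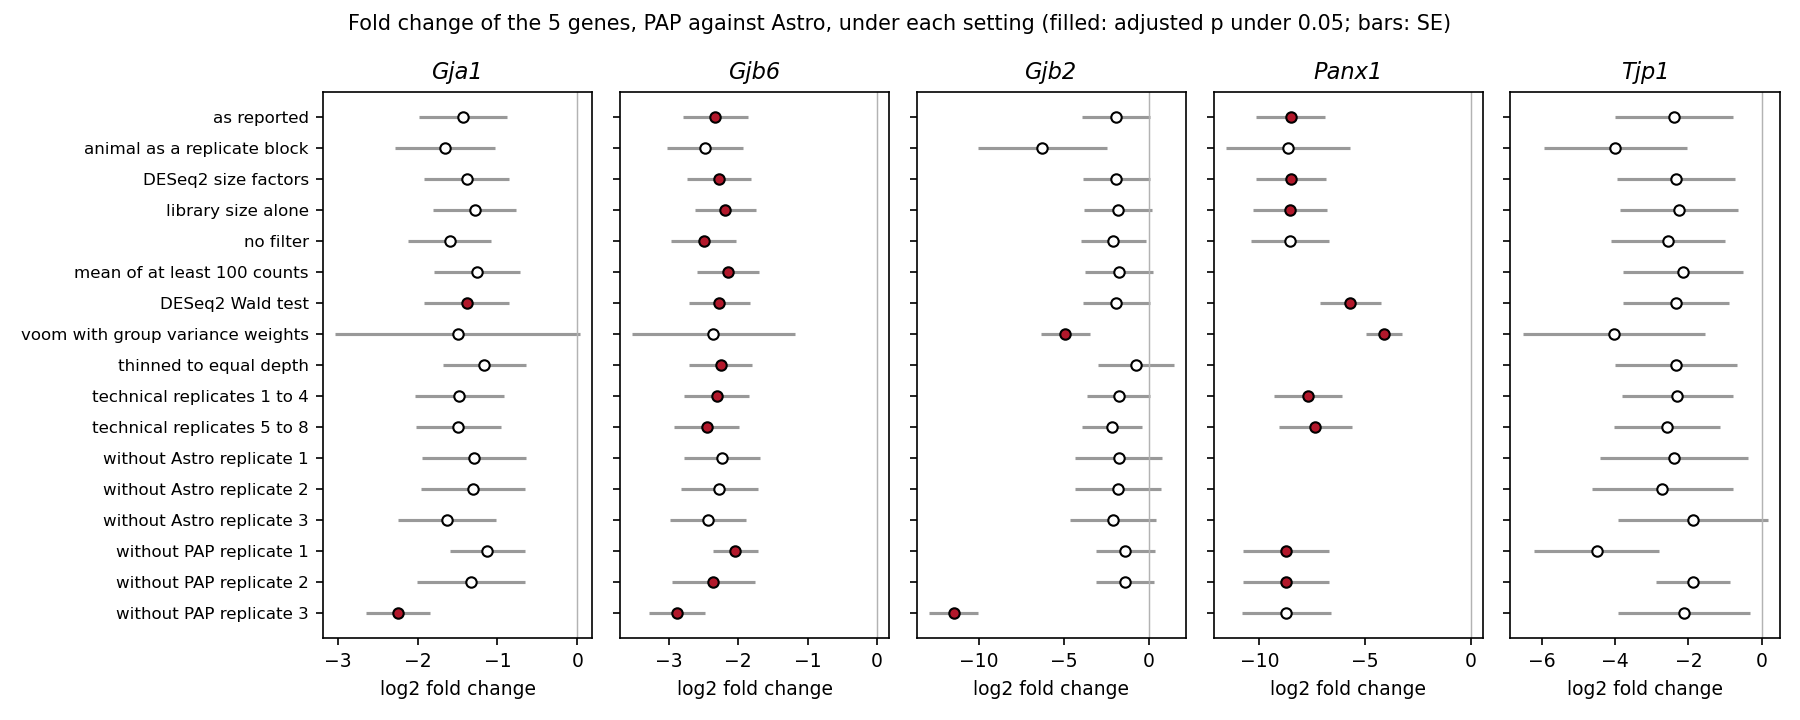
The log2 fold change of PAP against Astro (horizontal axis) with its SE is shown for each gene under the settings of the test across all genes, without the scaling to astrocyte markers, filled where the adjusted p was under 0.05; a gap means that the gene was not tested, and Panx1 and Gjb2 values with 0 counts in PAP are no measure of size. The plotted points lie below 0, and those of Gjb6 span -2.88 to -2.04.

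Levels of different genes were compared per kilobase of transcript. With the longest principal transcript of each gene (3182 bases for Gja1, 2105 for Gjb6 and 2406 for Gjb2), Astro held 441 ± 126 CPM per kilobase of Gja1, 370 ± 61.0 of Gjb6, 12.5 ± 3.70 of Gjb2, 9.001 ± 5.14 of Tjp1 and 0.772 ± 0.556 of Panx1 (SD, n = 3). The ranges of Gja1 and Gjb6 overlapped, as did those of Gjb2 and Tjp1, and only Panx1 and the leading pair stood apart from their neighbours. In PAP the values were 163 ± 116 for Gja1, 73.4 ± 40.2 for Gjb6, 3.25 ± 5.63 for Gjb2, 1.71 ± 2.31 for Tjp1 and 0 for Panx1. All annotated exons of Gja1 together span 10257 bases, far more than its principal transcript. On that length Astro Gja1 stood at 137 ± 39.2 CPM per kilobase, below Gjb6 at 291 ± 48.0, and PAP Gja1 at 50.6 ± 36.0, with Gjb6 at 57.8 ± 31.6. The order of their means thus depends on the transcript model in both compartments.

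The ratio of Gja1 to Gjb6 was higher in each PAP library than in any Astro library, a difference that the permutation test could not take below 0.05. Per kilobase of principal transcript, Gja1 was 1.25, 1.30 and 0.977 times Gjb6 in Astro animals 1 to 3 and 2.06, 1.76 and 2.55 times Gjb6 in PAP animals 1 to 3. The difference was 0.85 on the log2 scale, in which the lengths cancel, and its two-sided exact permutation p over 20 relabellings was 0.1, the smallest that 3 against 3 libraries allow (0.15 after Benjamini-Hochberg adjustment over 6 such tests). Paired by animal, the exact sign-flip p was 0.25, also the smallest possible. Gja1 made up 64.5%, 65.3% and 58.9% of the counts of the 3 connexins in Astro animals 1 to 3 against 75.8%, 72.6% and 77.8% in PAP. The PAP interval nearest to Astro (95% Wilson, counting error only), that of animal 2, was 69.9% to 75.3%, and the highest Astro interval, also that of animal 2, was 64.8% to 65.8%. Per kilobase of all exons the share of Gja1 was 13.8 percentage points higher in PAP (exact permutation p 0.1).

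Levels were also set against the astrocyte markers, a scaling added after the values had been seen. It moves both genes alike within a library, so the distance between them is again the ratio above, and the sign for Gja1 is set by the scaling. Gja1 had 46.9, 50.9 and 33.3 counts per 1000 counts of the 12 markers in Astro animals 1 to 3 against 58.9, 41.0 and 55.0 in PAP animals 1 to 3. These groups overlapped, at 43.7 ± 9.20 and 51.6 ± 9.43 (SD, n = 3; exact permutation p 0.4, 0.48 adjusted). Gjb6 had 24.8, 25.9 and 22.6 in Astro and 18.9, 15.4 and 14.3 in PAP, which did not overlap (24.4 ± 1.72 and 16.2 ± 2.38; exact permutation p 0.1, 0.15 adjusted). Without the abundant markers Gfap, Aldoc and Ndrg2 the difference was -0.05 for Gja1 and -0.90 for Gjb6 on the log2 scale, with exact permutation p of 0.8 and 0.1. Gjb2 had 1.02, 1.08 and 0.709 counts per 1000 marker counts in Astro and 0, 0 and 1.38 in PAP.

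**Figure D3:**
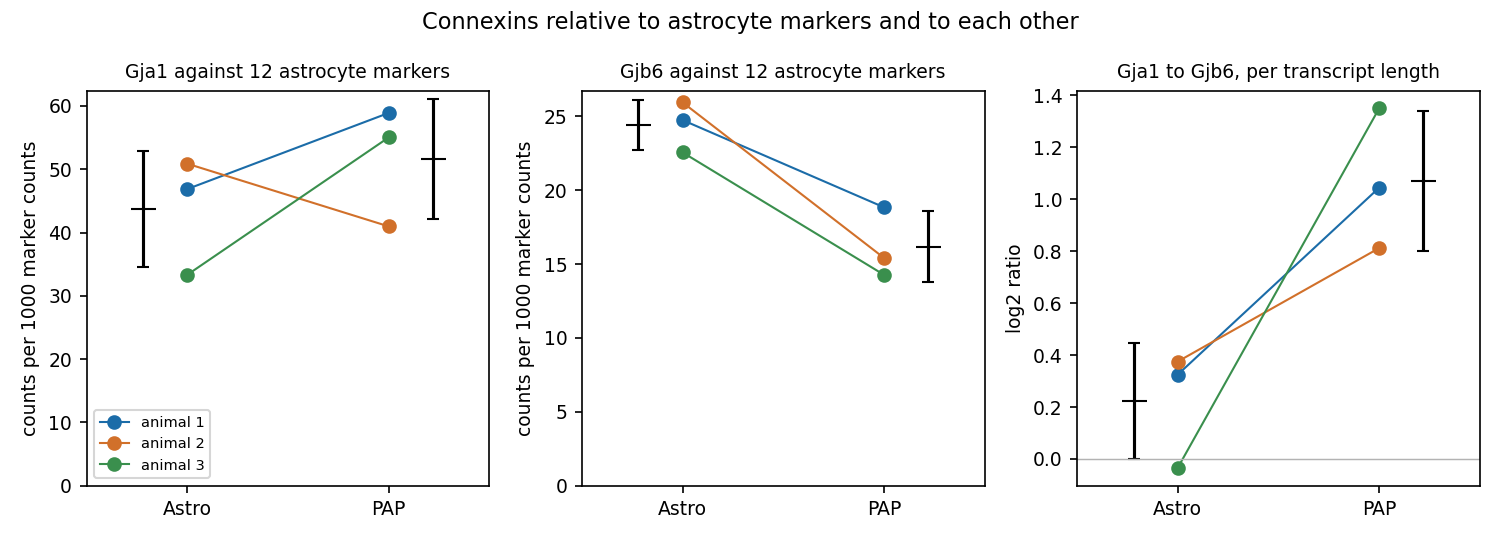
The left and middle panels give counts of Gja1 and Gjb6 per 1000 counts of the 12 astrocyte markers, and the right panel the log2 ratio of Gja1 to Gjb6 per kilobase of principal transcript; lines join the libraries of an animal and bars give the mean and SD of 3 libraries. Gjb6 is lower and the ratio higher in PAP in each animal, while the Gja1 lines cross.

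The genes with the pattern most like that of Gja1 over the 6 libraries were Aqp4, the water channel of astrocytes and 1 of the 12 markers, Ndufc2, a subunit of respiratory complex I, and Pigp, which acts in the synthesis of membrane anchors. Their log2 CPM, each centred on its own mean, differed from that of Gja1 by a root mean square of 0.11, 0.14 and 0.19. Aqp4 stood at 891, 727 and 507 CPM in Astro animals 1 to 3 and at 119, 202 and 407 CPM in PAP. For Gjb6 the nearest genes were Gstm1, a glutathione transferase, Prdx6, a peroxiredoxin, and Ptov1, at 0.13, 0.16 and 0.20. Among 4366 candidates with a mean of at least 50 CPM, 194 were closer to Gja1 than Gjb6 was, at 0.47.

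Connexins of other cell types were a small part of the family in Astro and a larger one in PAP. Gja1, Gjb6 and Gjb2 held 99.5%, 98.9% and 98.8% of the counts of all 20 connexin genes in Astro animals 1 to 3 against 94.5%, 74.0% and 86.7% in PAP. The 95% Wilson interval was 92.4% to 96.0% for PAP animal 1 and 98.7% to 98.9% for Astro animal 3, which covers counting error only. The 3 PAP values lay below the 3 Astro values, and this share was not tested over animals. Of the 19 other connexins and pannexins, 9 had 0 counts in every library, 8 reached 10 counts in some library and 5 were tested. None of the 5 passed the edgeR test in either direction, with or without the block. With the block 0 had an unadjusted p under 0.05, beside 3402 of the 14618 genes tested. The median log2 fold change of the 5 was 1.93.

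The most counted of these was Gjc3 (connexin 29), known from myelinating glia. Its counts were 142, 242 and 237 in Astro, animals 1 to 3, against 34, 193 and 527 in PAP, or 7.63, 14.2 and 12.03 CPM against 17.3, 99.5 and 174 CPM. The groups did not overlap, beside 10.9% of tested genes with PAP above Astro, and the log2 fold change of 3.10 ± 0.94 (SE) did not pass (edgeR adjusted p 0.0637), though the DESeq2 Wald test and the edgeR test without PAP animal 1 called it. Gjb1 (connexin 32), a connexin of oligodendrocytes, had 31, 53 and 7 counts in Astro, animals 1 to 3, against 1, 55 and 0 in PAP. In PAP it thus came almost wholly from animal 2, and it did not pass (edgeR adjusted p 0.494). The 10 oligodendrocyte markers summed to 831 to 914 CPM in Astro and to 612, 1063 and 1034 CPM in PAP animals 1 to 3, with 0 of 10 called. Among the PAP libraries, animal 2 had the highest level of 5 of these 10 genes, Mog and Opalin included, and the lowest of 3 (Mbp, Cnp and Cldn11). The part of oligodendrocyte RNA in these connexin counts was not tested.

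The other tested members of the family were low. Panx2, a pannexin known from neurons, stood at 1.88, 3.17 and 4.82 CPM in Astro animals 1 to 3 and at 1.02, 9.79 and 26.8 CPM in PAP (edgeR adjusted p 0.371). Gja5 and Gjc1, known from vessels and heart, ranged over 1.34 to 3.30 CPM in Astro and 0 to 5.29 CPM in PAP, with adjusted p of 0.798 and 0.954. Gjd2, the main connexin of neurons, was among the genes at 0 in every library.

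The lists of partner genes were chosen by function. Of the 23 genes that handle connexin trafficking, phosphorylation and turnover, all were tested, 1 rose, 4 fell and 18 did not pass, beside 5.92% higher and 15.4% lower among all tested genes, with a median log2 fold change of -0.54, close to that of all tested genes. Erp29, an endoplasmic reticulum protein that assists connexin 43 assembly, rose from 48.6, 64.0 and 28.2 CPM in Astro animals 1 to 3 to 378, 269 and 269 CPM in PAP (log2 fold change 2.70, edgeR adjusted p 0.0208, and 0.136 with the block). Ywhaq, a 14-3-3 protein, fell from 245, 177 and 234 CPM to 32.7, 59.8 and 72.0 CPM (log2 fold change -1.99, edgeR adjusted p 0.0228, and 0.206 with the block). The other 3 genes that fell were at or near 0 in PAP and passed the filter only through Astro, so their calls are no support for the count: Cav1 (caveolin) was at least 18.2-fold lower, Tjp3 (ZO-3) at least 4.61-fold and Ccn3 at least 2.71-fold (edgeR adjusted p 0.0208 to 0.0256, and 0.206 with the block). With the block 0 of the 23 passed edgeR, and 5 had an unadjusted p under 0.05, beside 3402 of the 14618 genes tested. With libraries thinned to equal depth Erp29 was still called and 0 genes of the list were called lower, of 21 tested. At that depth 288 of all 10939 genes tested were called higher and 105 lower.

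Among the genes of ATP release and purinergic signalling, into which pannexin channels feed, 9 of 14 were tested, 5 fell and 0 rose, beside 15.4% and 5.92% of all tested genes. All but Adk of the 5 had at most 1 count in any PAP library and passed the filter only through Astro, so their calls are no support for the count. At equal depth Adk was the only one called, of 7 tested, beside 288 higher and 105 lower of all 10939 genes tested. The median log2 fold change was -2.09, or -1.70 with the 4 genes at or under 3 counts in PAP set at their bounds. Entpd2 and Entpd1, enzymes that break down extracellular ATP, were at least 33.3-fold and 24.0-fold lower, from Astro means of 45.2 ± 18.2 and 32.6 ± 3.74 CPM (SD, n = 3). The ATP receptor genes P2ry1 and P2rx7 were at least 3.95-fold and 2.84-fold lower (edgeR adjusted p 0.0208 and 0.0409, and 0.206 with the block). Adk, the kinase that clears adenosine, fell from 842, 538 and 642 CPM in Astro animals 1 to 3 to 131, 127 and 216 CPM in PAP (log2 fold change -2.09 ± 0.34, edgeR adjusted p 0.0208, and 0.139 with the block). With the block 0 of the 9 passed. In that edgeR fit 5 had an unadjusted p under 0.05, beside 3402 of the 14618 genes tested. Adora1, the adenosine receptor of the same pathway, stood at 16.3, 0 and 185 CPM in PAP against 132 to 152 CPM in Astro and did not pass (edgeR adjusted p 0.746).

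The junction and adhesion partners of Tjp1 went in both directions: of 17 genes 15 were tested, 2 rose, 2 fell and 11 did not pass, beside 5.92% higher and 15.4% lower among all tested genes. At equal depth Ybx3 alone was called, of 13 tested, beside 288 higher and 105 lower of all 10939 genes tested. The median log2 fold change was -0.10, against -0.53 for all tested genes. Ybx3, a Y-box protein known to bind the SH3 domain of ZO-1 as well as RNA and DNA, rose from 56.4, 55.8 and 64.1 CPM in Astro animals 1 to 3 to 1526, 800 and 1102 CPM in PAP. Its log2 fold change was 4.28 ± 0.34 (SE; edgeR adjusted p 0.00244, and 0.0167 with the block). It was the only gene of the 3 partner lists to pass with the block, and the only one still called without any 1 of the Astro libraries. Afdn (afadin), which links nectins to actin, rose from 10.5, 11.3 and 21.4 CPM to 124, 39.2 and 122 CPM (log2 fold change 2.72, edgeR adjusted p 0.0412, and 0.206 with the block). The 2 genes that fell passed the filter only through Astro. Pard3, a polarity scaffold with at most 2 counts in a PAP library, was at least 24.7-fold lower (edgeR adjusted p 0.0388, and 0.206 with the block). F11r, a junctional adhesion molecule, stood at 3.71, 28.8 and 4.72 CPM in Astro animals 1 to 3 and at 0 in PAP, at least 9.15-fold lower, or 3.11-fold without Astro animal 2 (edgeR adjusted p 0.0474, and 0.217 with the block).

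**Figure D4:**
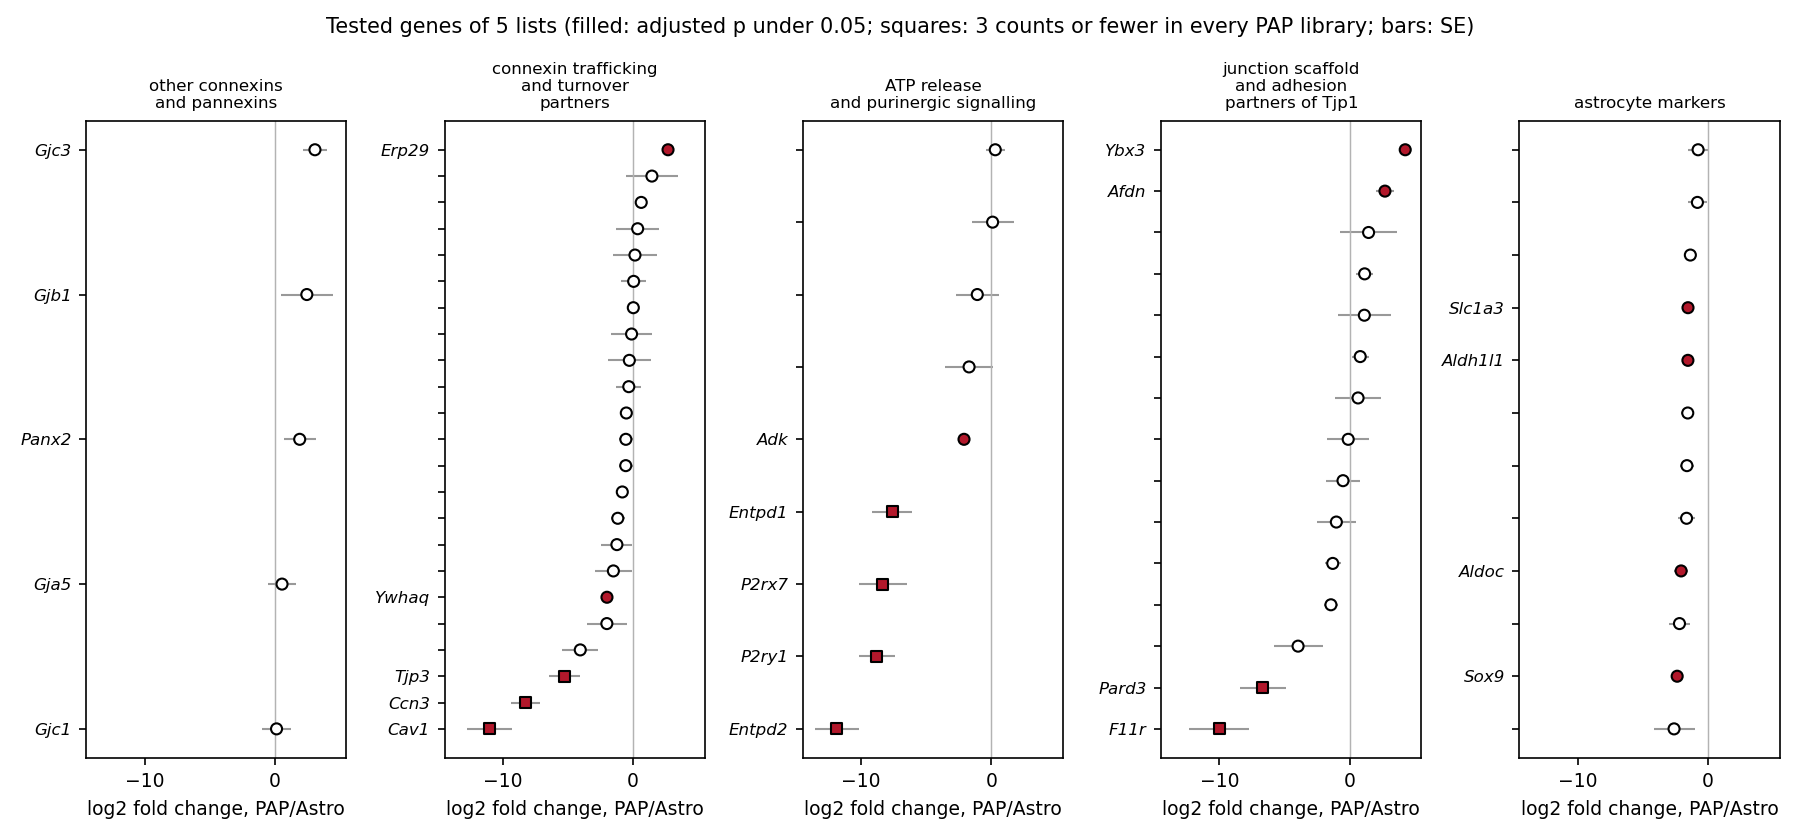
Points give the log2 fold change of PAP against Astro (horizontal axis) and its SE for the tested genes of the 4 partner and family lists and the astrocyte markers; filled points had an adjusted p under 0.05, and squares mark genes with 3 counts or fewer in every PAP library, whose position is no measure of size. Names are given for genes with an adjusted p under 0.05 and for the connexins and pannexin of the family list. Ybx3 lies farthest to the right at 4.28, and the 12 astrocyte markers all lie below 0.

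Markers of further cell types were measured in the same libraries. The 10 endothelial markers summed to 6.98 to 14.1 CPM in Astro and 15.5 to 24.5 CPM in PAP, with 2 tested and 0 called. The 8 mural cell markers gave 24.8 to 49.0 and 5.10 to 28.1 CPM, with 1 of 4 tested called lower, and the 10 microglial markers 42.7 to 89.9 and 30.4 to 60.7 CPM, with 3 of 7 called lower, all 3 at 0 in PAP. The 10 neuronal markers gave 1016 to 1629 and 482 to 1291 CPM, with 1 of 10 called higher and 1 lower. The 8 choroid plexus and ependymal markers gave 2528 to 20043 and 662 to 6698 CPM, with 3 of 8 called lower. With the animal as a block edgeR called 0 of the markers in these 5 lists. In the order given, 0, 1, 3, 3 and 3 of them had an unadjusted p under 0.05, beside 3402 of the 14618 genes tested. Among all tested genes 15.4% were called lower, and a gene at 0 in PAP passed the filter only through Astro. Their part in the values of the channel genes was not tested.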

How the data were processed

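The authors deposited raw counts per Ensembl gene, 1 file per technical replicate, per the file headers. Per the submitters' processing notes, bcl2fastq 2.18.0.12, Trim Galore 0.4.1, STAR 2.5.2b, SAMtools and HTSeq 0.5.3 were used with build mm10; the annotation and strand setting are not given in the sources used here. Per the labels' protocols, RNA was amplified with SMART-Seq v4 and libraries were made with Nextera XT. No molecular identifiers are named, so intervals and the floor of 3 counts cover counting error only. The p-values without the block measure the spread among the 3 libraries of each group and do not use the pairing by animal. Those with the block and the sign-flip p use it.

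Counts of the 8 technical replicates were summed per animal and compartment. Symbols, coordinates (1-based, GRCm38, the same assembly as mm10) and lengths came from GENCODE M21, which held 47224 of the 47643 genes. The edgeR 4.0.16 quasi-likelihood test in R 4.3.3 compared PAP with Astro after filterByExpr (minimum count 10) and TMM scaling, with Benjamini-Hochberg adjustment over all tested genes and a threshold of 0.05. The SE was taken from the fold change and its F statistic. DESeq2 1.42.0 and limma 3.58.1 (voom) were alternatives. The edgeR step was tested on simulated counts with the same dispersion for all genes and both groups. The larger spread of the PAP libraries was not part of that test. No gene with counts overlaps the exons of the 5 genes.

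The members and lists (connexin family, trafficking partners, purinergic genes, Tjp1 partners, and markers of astrocytes, oligodendrocytes, endothelium, mural cells, leptomeninges, choroid plexus and ependyma, neurons, microglia and B lineage) were chosen with earlier results of these data known. Named were the 5 members, each other family gene tested or with at least 10 counts in a library, up to 5 genes with the lowest p among those called in each partner list, and the 3 genes with the pattern nearest to Gja1 and to Gjb6 (log2 CPM with a prior count of 2); other genes named were chosen after their values were seen. Some genes of these lists enter the counts but are not reported here by name. Libraries with the same number come from the same animal, so the animal pairs them. Their deviations from the group means correlated at 0.03, 0.02 and -0.03 over tested genes in animals 1 to 3. Ratios took 0.5 counts as an offset.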

Additional observations from a re-analysis of the deposited data

Results flagged for a closer look

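A single technical replicate stood far from the other 7 in 2 of the 24 groups of 8 technical replicates checked. For Gjb2 in PAP animal 3 the gap was 0.552 of the range, which ran from 17.4 to 42.7 CPM, on 6 to 17 counts per replicate. For Panx1 in Astro animal 2 it was 0.551 of a range from 1.41 to 5.56 CPM, on 3 to 14 counts. Chance gives about 1 such gap in 20 groups. CPM here is not scaled by TMM factors.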

How the results depend on the processing

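With the animal as a replicate block, 133 genes differed in place of 3115 and 0 of the 5 members were called. In that fit Gjb6 was at -2.476 (adjusted p 0.176), Panx1 at -8.651 (0.206) and Gja1 at -1.661 (0.206). The median over the genes tested was -1.632 with the block, against -0.53 without it. A mean of at least 100 counts gave 1414 genes and 1 member, equal depth 393 genes and 1 member, no filter 1 member (Panx1 at -8.544, adjusted p 0.0503), and the DESeq2 Wald test 5141 genes. That test also called Gja1 (-1.384), and voom with group variance weights lost Gjb6 (-2.357) and called Gjb2 (-4.922). The median over the genes tested was -1.616 in voom. Relative to the 12 astrocyte markers, chosen after seeing the data, Gja1 turned to 0.247 and Gjb6 was at -0.601; relative to 9 markers Gjb6 was at -0.902. The cause was not tested.

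Across the fits leaving out 1 library, 115 to 4586 genes and 0 to 3 members were called; the 3 fits without an Astro library called 0 members and, in the partner lists, Ybx3 alone. Log2 fold changes ran from -2.242 to -1.126 for Gja1, -2.884 to -2.041 for Gjb6, -11.486 to -1.396 for Gjb2, -8.746 to -8.719 for Panx1 and -4.499 to -1.877 for Tjp1. The difference in the Gja1 to Gjb6 ratio ran from 0.71 to 0.97 and that in the share of Gja1 from 12.01 to 15.6 percentage points. Neither changed direction with technical replicates 1 to 4 or 5 to 8, or without any 1 library; gene length and the block leave the difference in the ratio as it is by construction. Scaling by library size alone put the median over the genes tested at -0.37 rather than -0.53, and Gja1 at -1.29. Depth limits Panx1 most, at 4.32 to 24.4 counts for the Astro level in PAP.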
